A study of Komagataella phaffii GS115 with 9 samples.

Results

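The robust mutant of *P. pastoris* induced with methanol at 37 °C (G14_37) was compared with its parent induced at 28 °C (Parent_28), 3 libraries against 3, which are 6 of the 9 libraries in the data set. The libraries were chosen by their labels alone. Both strains carry a lipase gene behind the methanol-inducible *AOX1* promoter, and both were sampled as cell pellets at 60 h of flask fermentation, in which glycerol-grown cells were moved to methanol medium. The mutant came from the parent by adaptive laboratory evolution and is 1 strain. No parent library at 37 °C was analysed here, so strain and temperature both differ between the groups, and their shares in a difference cannot be told apart from these 6 libraries. The 3 libraries of the mutant induced at 28 °C (G14_28) are given beside a value only to show where it stood in the same strain at the lower temperature.

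*P. pastoris* is a methylotrophic yeast that oxidizes methanol in the peroxisome, where the alcohol oxidase reaction releases hydrogen peroxide, and on methanol a few enzymes of this pathway take a large share of its messenger RNA. Cultures are normally grown well below 37 °C, and heat is known in yeasts to raise chaperone transcripts and to lower those of ribosome synthesis. In *Saccharomyces cerevisiae*, genes next to the telomeres are often kept at low expression by silent chromatin, and many belong to families of near-identical copies. The table names genes by locus tag and does not pair the tags with gene names, so none of the pathways above could be followed by gene, and the genes are described by level, length and place in the tag order.

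The table gives FPKM, reads per gene length and library size, for 5557 features. Whole reads recovered from the steps between values summed to 13655260, 13844328 and 13998351 in the Parent_28 libraries and to 13925952, 14192735 and 15945465 in the G14_37 libraries. The library sizes inside the FPKM were 0.874 to 0.879 times these reads for Parent_28 and 1.15 to 1.23 times for G14_37, so the deposited values carry a scaling between libraries, and the summed FPKM was 1052930 to 1066300 in Parent_28 and 707354 to 790873 in G14_37. Levels below are on this deposited scale, and results that turn with the scaling are given on both. Replicates were alike, with a Pearson correlation across genes of 0.994 to 0.995 within Parent_28 and 0.986 to 0.993 within G14_37, against 0.912 to 0.926 between the groups. G14_37 replicate 1 stood apart from the other libraries of its group, where a chi-square of the recovered reads divided by its degrees of freedom was 47.8 or more against each of them and 7.73 between them, so results that rest on it are also given without it. Most of the variance among the 6 libraries, 89.5%, fell on a first principal component that parted the groups, and the second, with 4.53%, set this library apart.

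More genes were lower than higher in G14_37 on the deposited scale. With limma on log2(FPKM + 1) and Benjamini-Hochberg adjustment, 671 of 5451 tested genes, 12.3%, were called, which required an adjusted p under 0.05 together with a log2 fold change of more than 1 in size. The calls split into 209 genes higher in G14_37, which is 3.83% of the tested genes, and 462 lower, which is 8.48%. The median FPKM of the 209 higher genes was 31.6, 31.6 and 33.7 in the Parent_28 libraries and 82.4, 87.6 and 81.4 in the G14_37 libraries. For the 462 lower genes, the medians were 359, 344 and 341 in Parent_28 and 127, 113 and 114 in G14_37. The genes that fell thus started well above the genes that rose, and the sets ended closer to each other. Given these starting levels, that they came closer follows from choosing the sets by direction and is no separate result.

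Few of the differences were large. A rise of 4-fold or more was seen in 31 genes and a fall of that size in 80, and 12 and 19 passed 8-fold. The log2 fold changes of 90% of the genes lay between -1.28 and 0.91, with a range from -5.45 to 5.62 and a median standard error of 0.069. With no criterion on the fold change, 3939 genes passed the adjusted p, which is 72.3%, 1805 higher and 2134 lower, with a median absolute log2 fold change of 0.50. The groups did not overlap in 667 of the 671 called genes, and this was so for 75.8% of all tested genes. The 5 called genes nearest to the fold criterion had log2 fold changes of up to 1.003 in size, and the 5 nearest outside it of at least 0.998.

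The balance between higher and lower calls depended on the scaling. With FPKM rescaled to the summed reads of each library, the median of all log2 fold changes shifted from -0.033 to 0.41, and 666 genes were called higher and 200 lower. The share of higher genes among the called thus went from 31.1% to 76.9%. All 209 genes called higher on the deposited scale were also called higher after rescaling. Of the 462 lower genes, 200 were also called lower, and no gene was called in opposite directions. Rescaling applies a single factor to each library and so raised the log2 fold changes together. That the higher genes stayed higher and that no call turned round follows from this and is no separate support. Without G14_37 replicate 1, 211 genes were higher and 514 lower.

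Above 10 FPKM, the share of genes called lower grew with the level on either scale. Of 108 genes with a mean of at least 1000 FPKM over the 6 libraries, 60 were lower (55.6%) and 5 higher, with a median log2 fold change of -1.13. Without G14_37 replicate 1, 62 were lower and 3 higher. Of 1770 genes between 100 and 1000 FPKM, 279 were lower (15.8%) and 59 higher, with a median of -0.34. Between 10 and 100 FPKM, 127 of 3433 genes were higher and 109 lower, with a median of 0.08, and below 10 FPKM, 18 of 140 were higher and 14 lower. After rescaling to summed reads, 33 genes of the most abundant class were lower and 7 higher, and its median was -0.68 where that of all genes was 0.41. The rescaled counts were 111 lower and 152 higher between 100 and 1000 FPKM, with a median of 0.10, 43 lower and 475 higher between 10 and 100 FPKM, and 13 lower and 32 higher below 10 FPKM.

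**Figure D1:**
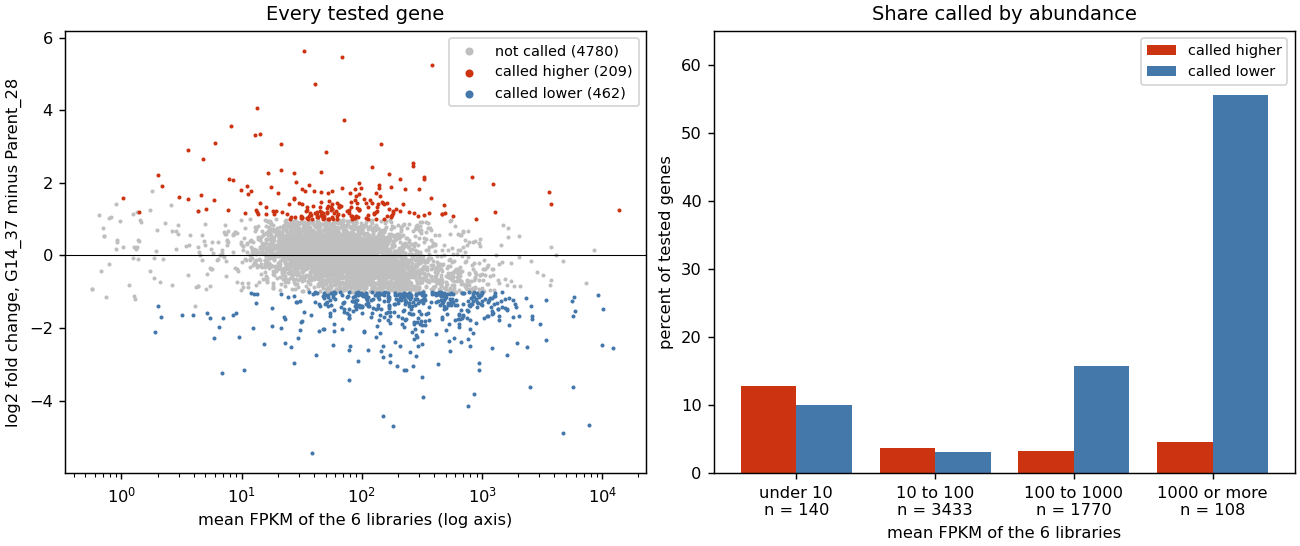
Left, log2 fold change of each of the 5451 tested genes (G14_37 minus Parent_28, on log2(FPKM + 1)) against its mean FPKM over the 6 libraries on a log axis, with called genes coloured. Right, percent of the tested genes in each abundance class that were called higher or lower; the share called lower is 3.18% from 10 to 100 FPKM, 15.8% from 100 to 1000 and 55.6% at 1000 or more.

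The leading transcripts of the parent were lower almost throughout. Of the 10 most abundant genes of Parent_28, 9 were called lower in G14_37 and none higher, and 9 of 10 is to be read beside the 8.48% of all genes called lower. Together they held 11.8% to 12.1% of the summed FPKM in the Parent_28 libraries, 10.1% to 10.6% in the G14_28 libraries and 3.93% to 4.72% in the G14_37 libraries. On the deposited scale, 67 of the 100 most abundant genes of Parent_28 were lower and 3 higher, with a median log2 fold change of -1.25. The counts over these 100 genes were not made after rescaling to summed reads. Of the 10 most abundant, those called lower stayed lower after rescaling except the gene at rank 5, which was then not called. In the class of at least 1000 FPKM, rescaling took the lower calls from 60 to 33. The median FPKM of these 100 genes was 2078 to 2130 in Parent_28 and 877 to 1022 in G14_37, so the groups did not overlap. Choosing genes by their level in Parent_28 favours decreases, and among the 10 most abundant genes of G14_37, chosen in the opposite way, 3 were higher and 2 lower.

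The most abundant gene of the parent, on chromosome 4 with a recovered length of 1992 bases, had 20582, 21096 and 21564 FPKM in Parent_28 and 4430, 3405 and 3194 in G14_37. It stood at 16462, 16440 and 15711 FPKM in G14_28, so the lowest G14_28 library was still over 3 times the highest G14_37 library. Its log2 fold change was -2.53 (SE 0.15, limma adjusted p = 1.9e-06). At rank 2, a gene of 1098 bases on chromosome 3 went from 16929, 16088 and 17165 FPKM to 3462, 2860 and 2883, a log2 fold change of -2.45 (SE 0.12). At rank 3, a gene of 2124 bases on the same chromosome went from 14826, 14742 and 15495 to 6111, 4970 and 5119 FPKM. In all 3 genes the G14_37 libraries lay far below every Parent_28 library.

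The largest decreases among the leading transcripts, at ranks 4, 6 and 8, were of short genes. That at rank 4, of 354 bases on chromosome 4, had 14809, 14446 and 15087 FPKM in Parent_28, 13634, 14679 and 11303 in G14_28 and 833, 472 and 504 in G14_37. Its log2 fold change was -4.66 (SE 0.20, limma adjusted p = 3.9e-07). At rank 6, a gene of 312 bases on the same chromosome had 10371, 10052 and 10968 FPKM in Parent_28 and 990, 717 and 849 in G14_37, a log2 fold change of -3.63 (SE 0.13). Both left the range of the parent's leading transcripts, and in the gene at rank 4 the G14_28 libraries stayed close to Parent_28, with a single G14_28 library inside its range.

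The other members of this group of 10 changed less. The genes at ranks 3, 9 and 10 had log2 fold changes of -1.48, -1.54 and -1.65, and all 3 were also called lower after rescaling to summed reads. That at rank 9, of 339 bases, was short as well, so short genes of this group did not all fall steeply. A gene of 513 bases on chromosome 1, at rank 5, had a log2 fold change of -1.09 and was not called after rescaling, where it was -0.64. The gene at rank 7, of 1533 bases on chromosome 2, was the one not called, with 9263, 9212 and 9163 FPKM in Parent_28 and 5445, 5449 and 5570 in G14_37, a log2 fold change of -0.75 (SE 0.10). Its groups did not overlap either.

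**Figure D2:**
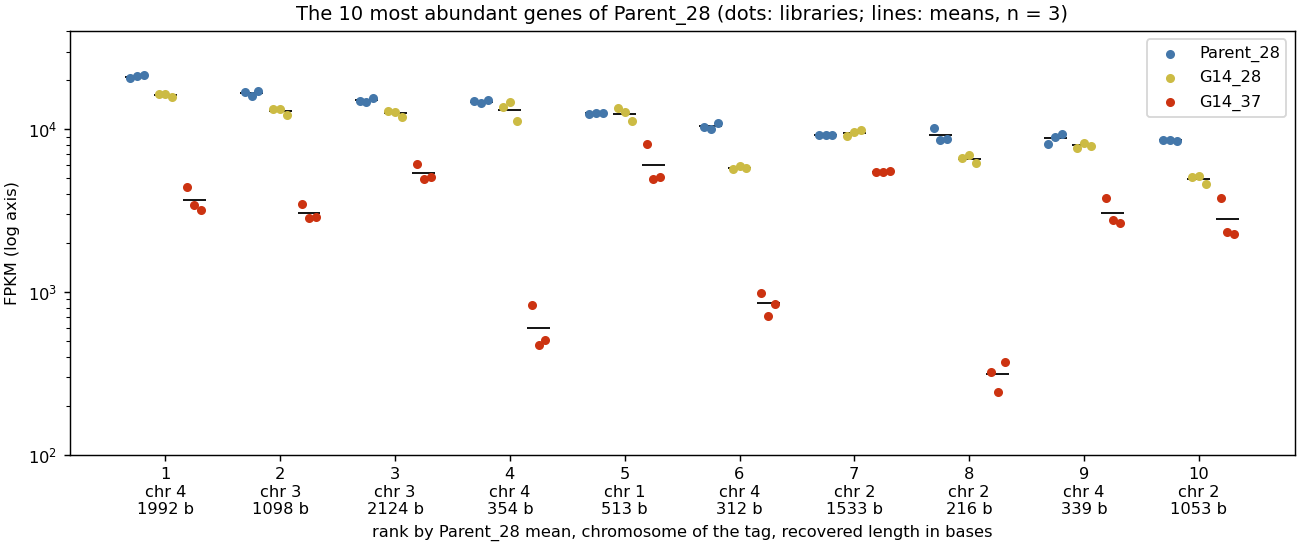
FPKM, on a log axis, of the 10 most abundant genes of Parent_28 in each library of Parent_28, G14_28 and G14_37 (dots) with the group means (lines, n = 3). In every one of the 10 genes the G14_37 libraries lie below all Parent_28 libraries, and those at ranks 4, 6 and 8 fall below 1000 FPKM.

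The order of the leading transcripts was different in G14_37. Only 3 of the 10 most abundant genes of Parent_28 were among the 10 most abundant of G14_37, and the top 10 of each library held 11.8% to 12.1% of the summed FPKM in Parent_28 and 8.54% to 10.8% in G14_37. The top 100 held 33.7% to 34.3% in Parent_28 and 24.3% to 28.0% in G14_37. The most abundant gene of G14_37, of 1038 bases on chromosome 3, was at rank 14 in Parent_28. It had 7196, 8134 and 7982 FPKM in Parent_28 and 30934, 14490 and 14433 in G14_37, with G14_37 replicate 1 at more than the sum of the other libraries of its group. Its log2 fold change was 1.26 (SE 0.29, limma adjusted p = 0.0041), and without that library it was 0.90 and not called.

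A pair of the other leading genes of G14_37 was called higher with or without replicate 1. At rank 4, a gene of 447 bases on chromosome 2 had 1620, 1603 and 1692 FPKM in Parent_28 and 6256, 4767 and 5482 in G14_37, a log2 fold change of 1.74. It was at rank 79 in Parent_28. At rank 6, a gene of 846 bases on the same chromosome went from 2054, 2022 and 2094 to 5437, 5289 and 5685 FPKM, a log2 fold change of 1.41. Neither gene had overlapping groups, and both stood in G14_28 nearer to Parent_28 than to G14_37.

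The largest increases and decreases were ranked over the called genes with no overlap between the groups and with a mean of 5 FPKM or more in one group. The largest increase was CHR1-1586 (the tags carry the prefix PP7435), of 666 bases, whose tag stands 3rd from the last consecutive tag of chromosome 1, counting that tag as the first. It had 0.367, 0.370 and 0.252 FPKM in Parent_28, from 3, 3 and 2 reads, and 76.0, 66.7 and 52.7 FPKM in G14_37, from 929, 760 and 602 reads. In G14_28 it had 0, 0 and 2 reads. The gene was thus at the edge of detection at 28 °C in either strain and moderately expressed in the mutant at 37 °C. The ratio of its levels was 198, with an exact 95% interval from the reads of 100 to 459 that covers counting error only, and its log2 fold change was 5.62 (SE 0.16, limma adjusted p = 7.3e-08).

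CHR4-1158, of 522 bases, was the other of the largest increases and moved at a different step. It had 2.34, 1.89 and 1.93 FPKM in Parent_28, 63.8, 73.4 and 75.2 in G14_28 and 148, 125 and 129 in G14_37. The 3 groups did not overlap, and most of the rise on the log2 scale was already there in the mutant at 28 °C. Its log2 fold change was 5.47 (SE 0.095, limma adjusted p = 1.3e-08), made up of 4.56 from Parent_28 to G14_28 and 0.91 from G14_28 to G14_37.

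CHR2-0267, of 2394 bases, had the largest decrease. It had 91.9, 73.6 and 63.4 FPKM in Parent_28, 32.5, 23.7 and 33.5 in G14_28 and 0.682, 0.879 and 0.707 in G14_37, the last from 30, 36 and 29 reads. The groups were in steps with no overlap, and the larger step was the one at 37 °C. Its log2 fold change was -5.45 (SE 0.15, limma adjusted p = 6.7e-08), of which -1.32 lay between Parent_28 and G14_28 and -4.12 between G14_28 and G14_37.

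CHR2-0423, of 216 bases, fell from among the parent's leading transcripts, where it was at rank 8. It had 10212, 8626 and 8735 FPKM in Parent_28, 6678, 6913 and 6224 in G14_28 and 322, 244 and 370 in G14_37. Its log2 fold change was -4.89 (SE 0.15, limma adjusted p = 1.0e-07), with -0.47 at the first step and -4.42 at the second. For each of these 4 genes an exact two-sided permutation test over the 6 libraries gives p = 0.1, the smallest it can give with 3 against 3, and that value follows from choosing genes whose groups do not overlap.

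**Figure D3:**
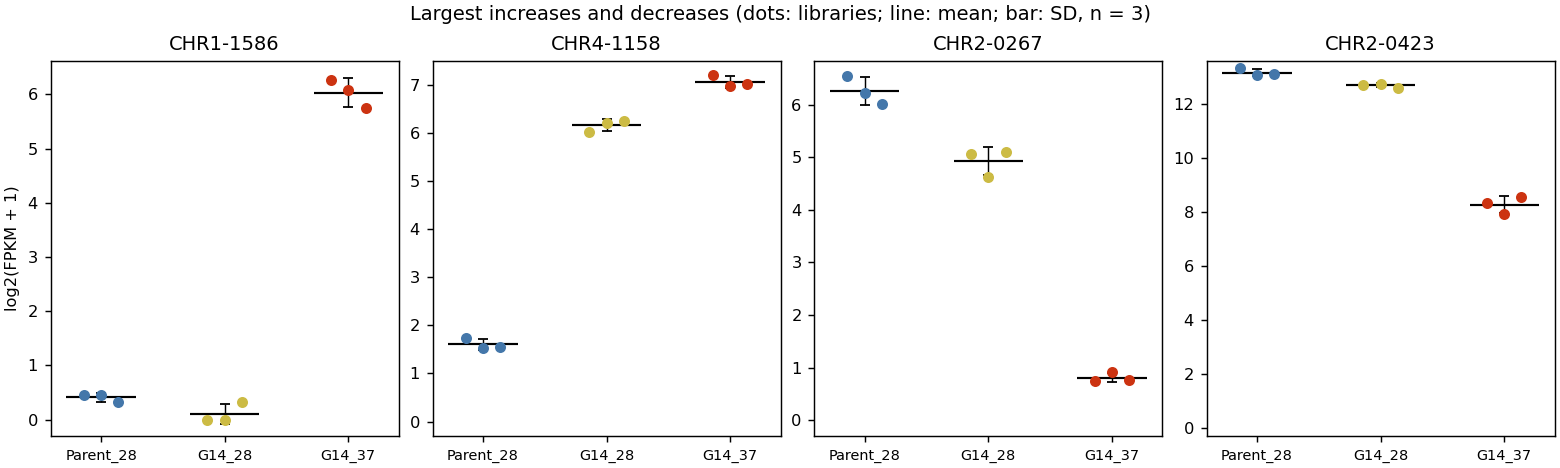
Level on log2(FPKM + 1) of the 2 genes with the largest increase and the 2 with the largest decrease, in each library (dots) with the mean (line) and SD (bar, n = 3), each panel on its own axis. CHR1-1586 is near 0 in both groups at 28 °C, CHR4-1158 is already high in G14_28, and CHR2-0267 and CHR2-0423 are lowest in G14_37.

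The 12 largest increases had log2 fold changes of 3.06 to 5.62 and the 12 largest decreases of -5.45 to -3.34. After rescaling to summed reads, all 24 were called in the same direction. Their size left little room for another outcome, since rescaling moved the median of all log2 fold changes from -0.033 to 0.41. The genes that rose were low in the parent, with Parent_28 means of 0.309 to 29.3 FPKM and G14_37 means of 11.5 to 743. The gene at place 3 in this order, of 1206 bases on chromosome 4, had 17.6, 15.9 and 21.9 FPKM in Parent_28 and 665, 646 and 918 in G14_37. It had no such rise in G14_28, with 14.4, 9.03 and 14.1 FPKM. The genes that fell ranged widely in the parent, with Parent_28 means of 76.3 to 14781 FPKM and G14_37 means of 0.756 to 852.

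A single length recurred among the largest decreases. Of the 12 largest, 3 had a recovered length of 1422 bases, at ranks 3, 7 and 8, and of the 10 tested genes of that length 4 were called lower. These 4 include the 3 by which the length was picked, so the count says little about the length. Of all tested genes, 8.48% were lower. Their means were 349, 605 and 1608 FPKM in Parent_28 and 12.6, 39.8 and 114 in G14_37. The one at rank 3 was low in G14_28 already, with 32.2, 20.4 and 32.3 FPKM, while the one at rank 8 had 1632, 1576 and 1617 FPKM in G14_28, all within its Parent_28 range of 1570 to 1667. Whether these genes are near-identical copies that share reads was not tested.

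Few genes crossed from near absence to expression or back. Of the 209 higher genes, 11 had a Parent_28 mean under 1 FPKM, and 7 of these reached at least 5 FPKM in G14_37. Of the 462 lower genes, 5 had a G14_37 mean under 1 FPKM, and 2 of them had started at 5 FPKM or more. Only 5 of the higher genes had at most 3 reads in each Parent_28 library, 2 of them with no read in any, and 6 of the lower genes had at most 3 reads in each G14_37 library. A gene of 1000 bases with 3 reads had 0.244 to 0.251 FPKM in Parent_28 and 0.163 to 0.175 in G14_37, and levels below that were not detectable at this depth.

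Many of the largest increases lay at the ends of the tag order. Tags are numbered along each chromosome, and the consecutive part of the numbering was taken as the chromosome, without a check against coordinates. Of the 38 tested genes within 5 tags of an end, 14 were higher (36.8%) and 2 lower (5.26%), against 3.83% and 8.48% of all genes. Within 10 tags, 15 of 78 were higher and 6 lower. Within 25 tags, 22 of 198 were higher (11.1%) and 19 lower (9.60%), while further inside 165 of 4726 were higher (3.49%) and 385 lower (8.15%). After rescaling to summed reads, these counts were 40 higher and 8 lower within 25 tags and 550 higher and 171 lower further inside. Of the 12 largest increases, 6 lay within 5 tags of an end, and of the 12 largest decreases 1 did. Within 25 tags of an end lay 6 of these increases and 3 of these decreases. Of all 5451 tested genes, 38 lay within 5 tags and 198 within 25, so both sets had more genes near ends than that. These windows were chosen after the positions of the largest increases had been seen, and no test was made.

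The higher genes at the ends had low median levels in both strains at 28 °C. The 14 higher genes within 5 tags of an end had a median of 3.41, 3.29 and 2.55 FPKM in Parent_28, 1.28, 0.648 and 1.80 in G14_28 and 70.2, 78.1 and 55.2 in G14_37. The G14_28 libraries were thus the lowest of the 3 groups, with no overlap in these medians. Not every member was low. The tag next to the last of chromosome 2 had means of 36.0 FPKM in Parent_28 and 28.0 in G14_28. The 3rd tag from the end of chromosome 4 had 36.5 and 24.8. Choosing genes called higher in G14_37 also favours a low level in Parent_28. The 14 calls became 15 after rescaling to summed reads and 15 without G14_37 replicate 1.

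At the first tag of chromosome 1, of 1482 bases, Parent_28 had 0.110, 0.665 and 0.622 FPKM and G14_37 had 13.4, 13.0 and 8.03, a log2 fold change of 3.08 (SE 0.30). Its G14_28 libraries, at 1.63, 0.0570 and 1.78 FPKM, lay on both sides of the Parent_28 range. At the last tag of this chromosome, of 5506 bases, Parent_28 had 0.459, 0.701 and 0.548 FPKM and G14_37 had 9.73, 9.31 and 7.84, a log2 fold change of 2.66 (SE 0.24). The tag next to it, of 1611 bases, had 2.78, 1.84 and 1.61 FPKM in Parent_28 and 80.5, 91.3 and 67.4 in G14_37, a log2 fold change of 4.72 (SE 0.16). Together with CHR1-1586, the last 3 tags of chromosome 1 were all called higher, and each was lower in G14_28 than in Parent_28 on average.

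The first tags of chromosomes 2 and 3 were called higher as well. The first tag of chromosome 2, of 1524 bases, went from 0.481, 0.755 and 0.550 FPKM to 24.8, 33.6 and 20.6, a log2 fold change of 4.07 (SE 0.21). The first tag of chromosome 3, of 1503 bases, went from 8.51, 9.73 and 9.19 FPKM to 127, 138 and 135, a log2 fold change of 3.73 (SE 0.067), and each G14_28 library was above every Parent_28 library there, at 28.5, 14.2 and 37.8. The tags next to these 2 were not called, with log2 fold changes of -0.23 and -0.06, so at these ends the rise was found at the outermost tag alone of the first 3.

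The last tags of chromosomes 2 and 4 were also higher. The last tag of chromosome 2, of 5659 bases, had 0.115, 0.0581 and 0.0148 FPKM in Parent_28, from 8, 4 and 1 reads, and 4.25, 3.12 and 4.60 in G14_37. The last tag of chromosome 4, of 6508 bases, had 4.03, 4.75 and 3.49 FPKM in Parent_28 and 12.3, 11.95 and 9.34 in G14_37, a log2 fold change of 1.26 (SE 0.17). The next tags inward on chromosome 4 rose more, with log2 fold changes of 2.31 and 1.99. All 3 were thus higher in every G14_37 library than in any Parent_28 library.

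No call was made at the remaining ends. The last tag of chromosome 3, of 6296 bases, had 9.90, 11.03 and 10.5 FPKM in Parent_28, 1.37, 1.86 and 2.01 in G14_28 and 8.17, 8.33 and 7.13 in G14_37, a log2 fold change of -0.37 that was not called. Within 25 tags of that end, 1 gene was higher and 6 were lower. The first tag of chromosome 4, of 918 bases, was below 1 FPKM on average in both groups and was not tested. It had 0.355, 0.268 and 0.456 FPKM in Parent_28, from 4, 3 and 5 reads, and 1.07, 0.891 and 0.826 in G14_37, from 18, 14 and 13 reads, so G14_37 was the higher group there in every library. The last tags of chromosomes 1 to 4 have recovered lengths of 5506, 5659, 6296 and 6508 bases, and reads shared between near-identical genes at the ends were not examined.

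**Figure D4:**
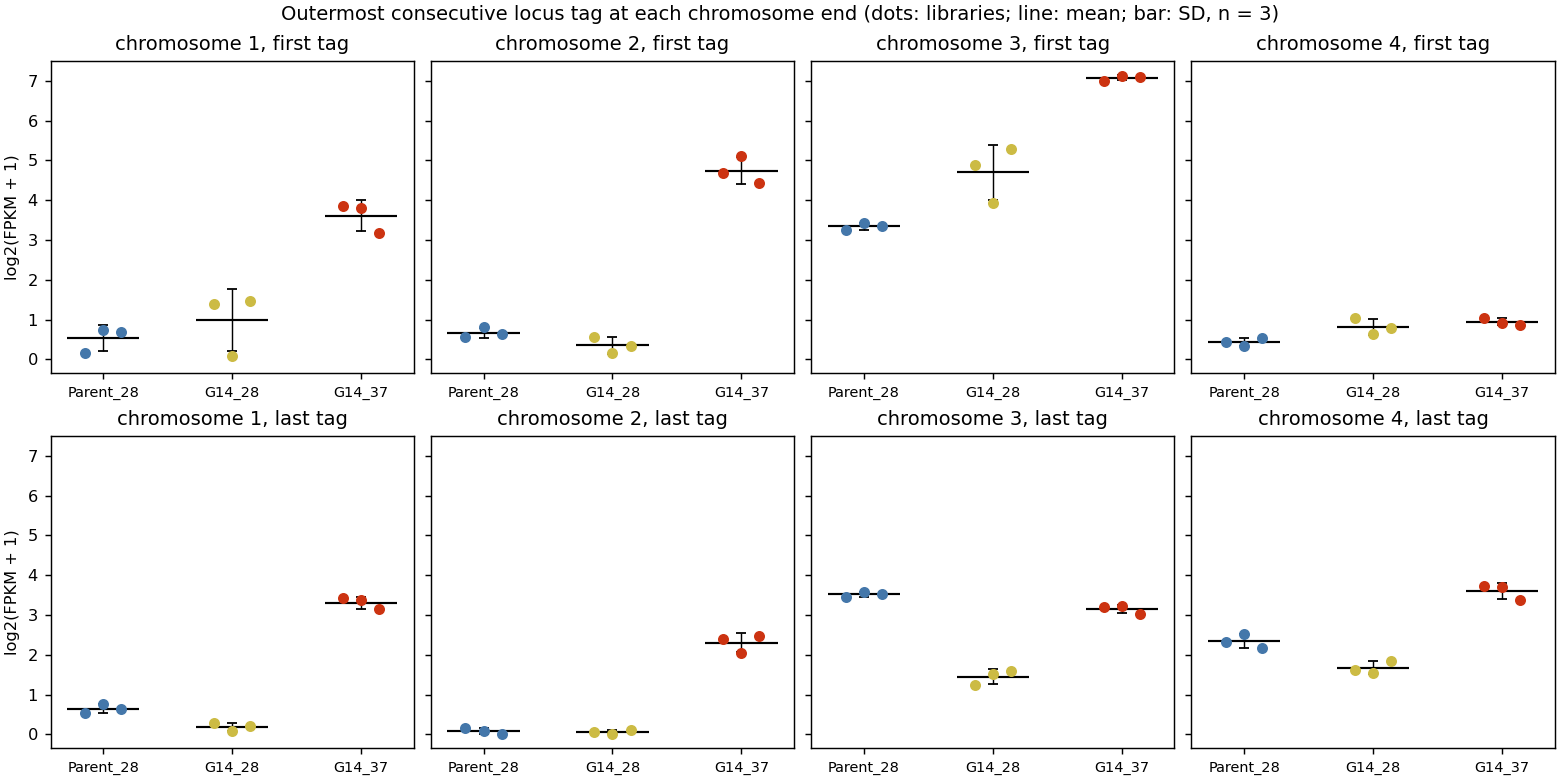
Level on log2(FPKM + 1) of the outermost consecutive tag at each end of the 4 chromosomes, in each library (dots) with the mean (line) and SD (bar, n = 3). G14_37 is above Parent_28 at 7 of the 8 ends and below it at the last tag of chromosome 3; the first tag of chromosome 4 was not tested.

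Counted over whole chromosomes, ends included, called genes were found on all 4. Chromosome 1 had 57 higher and 131 lower genes of 1668 tested, chromosome 2 had 36 and 98 of 1368, chromosome 3 had 62 and 114 of 1312, and chromosome 4 had 49 and 113 of 1067. After rescaling to summed reads the balance turned on each, to 205 higher and 57 lower, 134 and 43, 183 and 50, and 136 and 48. On the deposited scale, the share of tested genes called higher was lowest on chromosome 2, at 2.63%, and highest on chromosome 3, at 4.73%. Of the 187 higher genes in the consecutive numbering, ends included, 71 stood in 28 runs of neighbouring tested genes, the longest of 6 genes on chromosome 4. Of the 404 lower genes, 110 stood in 52 runs, the longest of 3. Among the 4924 tested genes of this numbering, 3.80% were higher and 8.20% lower. How many runs such shares alone would give was not worked out.

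A pair of stretches had many higher genes next to each other. The running median of 50 neighbouring genes peaked at 0.82 on chromosome 3, at places 1021 to 1070 of 1173, where 19 genes were higher and 1 lower. The median FPKM of these 50 genes was 72.0, 66.7 and 68.3 in Parent_28, 111, 125 and 114 in G14_28 and 117, 119 and 122 in G14_37. Both mutant groups were thus above the parent, and they overlapped each other. On chromosome 4, the running median of 20 genes reached 1.17 at places 66 to 85 of 985, where 13 genes were higher. The median FPKM of these 20 genes was 50.1, 53.8 and 51.8 in Parent_28, 107, 108 and 112 in G14_28 and 124, 129 and 127 in G14_37. With windows of 50 genes, the largest running median on chromosome 4 was 0.32, below the 0.41 of chromosome 1. With windows of 20 genes, chromosomes 1 and 3 reached 0.82 and 1.16, so which stretches stand out depends on the window. Of all tested genes, 3.83% were higher. The lowest running median of 50 genes was -0.34, also on chromosome 4.

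**Figure D5:**
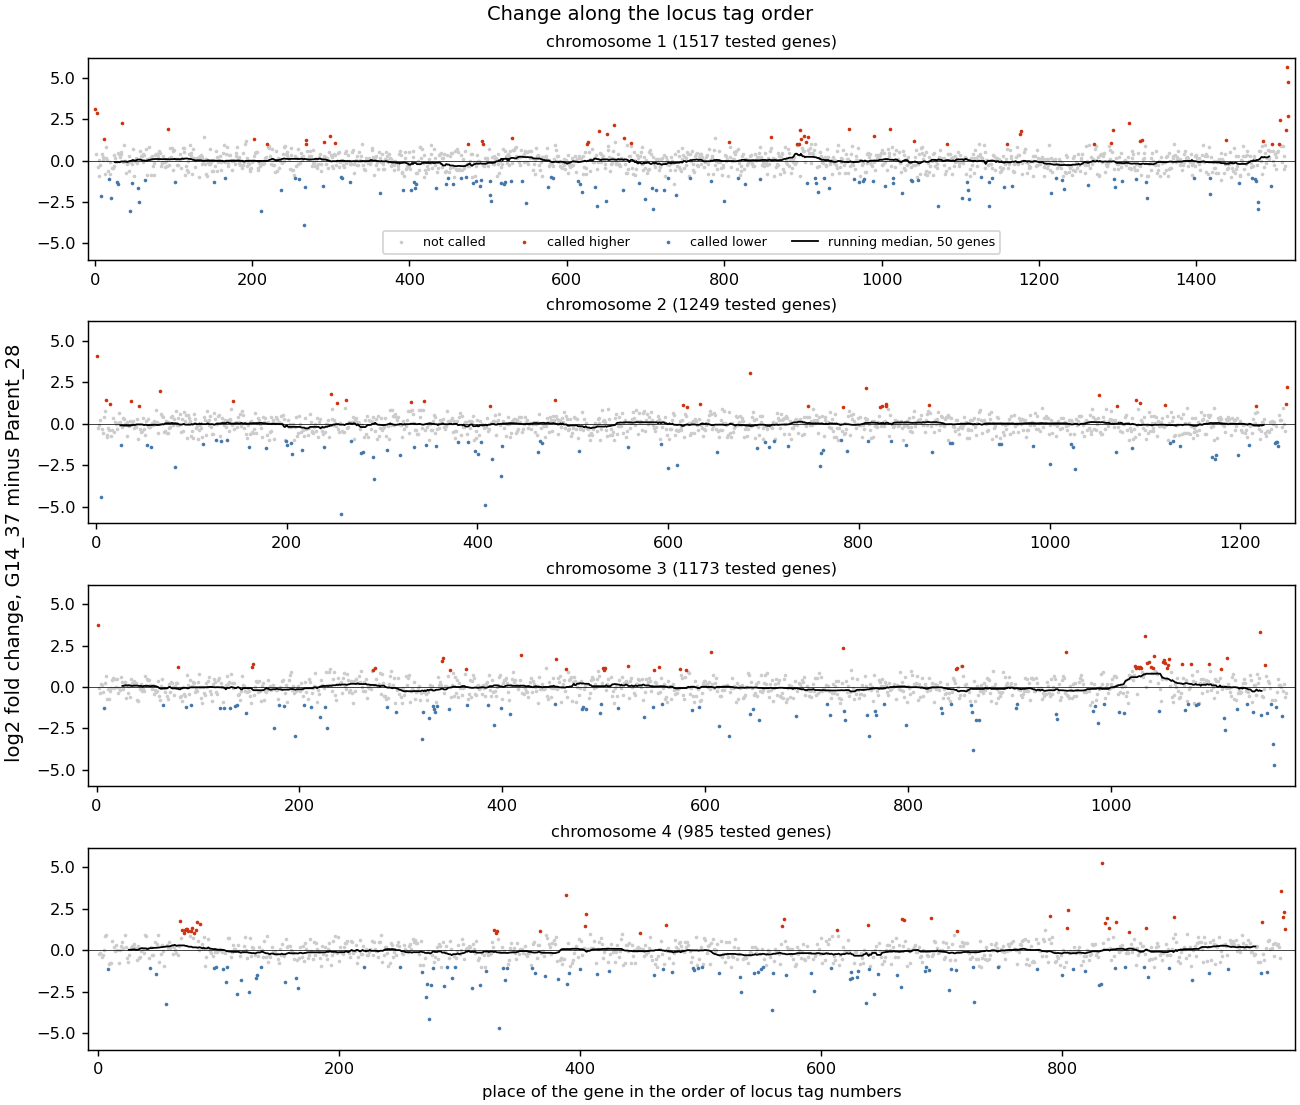
Log2 fold change (G14_37 minus Parent_28, on log2(FPKM + 1)) of the 4924 tested genes in the consecutive numbering, against place in the order of locus tags. Each chromosome has its own panel, with called genes coloured and the running median of 50 genes as a line. CHR4-1158 lies outside the consecutive numbering and is not shown. The running median rises to 0.82 on chromosome 3, and the highest point stands within 3 tags of an end on chromosomes 1, 2 and 3 and inside chromosome 4.

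In most of the gene sets above, the larger step lay between the mutant groups. Each log2 fold change is the sum of a step from Parent_28 to G14_28 and a step from G14_28 to G14_37, which share the G14_28 libraries and are given side by side with no test. For the 209 higher genes, the median was 0.38 for the first step and 1.01 for the second. For the 462 lower genes, it was -0.36 and -1.08, and for the 10 most abundant genes of Parent_28 it was -0.32 and -1.74. The 14 higher genes within 5 tags of an end went the other way at the first step, with -0.34 and then 2.78. The window on chromosome 3 was the reverse of the rest, with 0.76 at the first step and 0.06 at the second, as was the one on chromosome 4 with 0.92 and 0.16. For all tested genes, both medians were near 0, at -0.04 and -0.02.

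Lower genes were more frequent among short genes. Of 319 tested genes under 300 bases, 74 were lower (23.2%) and 22 higher (6.90%). Of 1937 genes of 300 to 1000 bases, 182 were lower and 59 higher, and of 2146 genes of 1000 to 2000 bases, 168 were lower and 92 higher. Of 1049 genes of at least 2000 bases, 38 were lower (3.62%) and 36 higher (3.43%). The median log2 fold change was -0.38 in the shortest class and 0.08 in the longest. After rescaling to summed reads the balance turned, with 41 lower and 51 higher genes in the shortest class and 13 lower and 114 higher in the longest, and medians of 0.02 and 0.52. Level and length go together in such a table, and their parts in this pattern were not tested.

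Features without a place on the 4 chromosomes were few. Of the 49 features with a mitochondrial tag, 9 passed the filter on low values, of which 3 were higher and 1 lower. Without G14_37 replicate 1, 2 were higher and 1 lower. Of the 30 numbered transcripts to which the table gives no locus tag, 27 were tested, 2 were higher and 5 lower. Both sets are small, and of all tested genes 3.83% were higher and 8.48% lower. The largest increase of the transcripts without a locus tag, of 653 bases, went from 0.624, 0.881 and 1.41 FPKM to 4.17, 4.74 and 6.25. Their largest decrease, of 3478 bases, went from 15.3, 13.2 and 13.2 FPKM to 3.76, 4.05 and 4.03. In both, all G14_37 libraries were on one side of all Parent_28 libraries, while the other 4 decreases were not called after rescaling to summed reads.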

How the data were processed

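The data are RNA-seq values of *P. pastoris* cell pellets, grouped by the sample labels. Per the labels, the submitters' processing notes name CASAVA, HISAT2 2.0.5 and featureCounts 1.5.0-p3. The genome build, the annotation and strandedness are not given in the sources used here. The authors deposited FPKM without naming the unit, which was inferred from the values. Values rise in equal steps that depend on gene and library, and from these steps reads and lengths could be worked out for all 5516 features that have reads (100% of 49103 values above 0 whole within 0.01 reads). Of the clear lengths, 98.6% were multiples of 3, so lengths are coding lengths for most genes. The recovery was tested on simulated data.

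Genes with a mean of at least 1 FPKM in Parent_28 or G14_37 were tested on log2(FPKM + 1) by limma 3.58.1 under R 4.3.3 (eBayes moderation following the intensity trend), two-sided, with only these 6 libraries. Fold changes on this scale understate the change of low genes. Because FPKM are not counts, the study's own count test was not used. Limma-voom on the recovered reads called 697 genes, 221 higher and 476 lower. In a simulation of this comparison with 5441 genes, 199 of the 200 that had been changed were called and 0 others. The changes were set above the fold criterion, in genes with a mean of 5 FPKM or more. All genes and libraries had the same noise, and no scaling differed between the groups. The simulation thus checks the procedure only, and not how calls behave with the spread of G14_37 replicate 1 or the deposited scaling. Named genes were the 12 largest increases and 12 largest decreases over the called genes with no overlap between the groups and with 5 FPKM or more on average in one of them, the called transcripts without a locus tag, and the 5 most abundant genes of each group, of which tags are printed for 2 in each direction because the tags are not paired with names. The 5527 locus tags share 0 tags with the RefSeq table of strain GS115. Beyond this rule, ranks 6 to 10 of each group and the genes at the ends were chosen after their values were seen.

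The comparison, its gene sets and these rules were chosen with earlier results of these data known. The windows at the ends, the classes of level and length, and the rule for consecutive tags were set after the data were seen. Numbering counts as consecutive up to where the median of the next 10 gaps goes above 3, and on from there while gaps stay at 2 or less. The replicates are biological per the study's methods, with no statement that each is a separate strain isolate, so p-values measure the spread between these libraries. Replicate pairs differed by more than sampling noise, and none was counted as 1 library. Intervals and detection limits, set at 3 reads, cover counting error only. Figures and descriptions were made with Python 3.11.15, numpy 2.4.6, pandas 2.3.3 and matplotlib 3.10.9.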

Additional observations from a re-analysis of the deposited data

How the results depend on the processing

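Under median centring, limma-voom, a pseudocount of 0.1, testing without the filter, no intensity trend or all 3 groups in one fit, the numbers of genes called, higher and lower stayed within 1.5 times their values, from 659 to 697 called. With values scaled to summed reads, 666 genes were higher and 200 lower, 76.9% of them higher, and 33 in place of 60 genes of at least 1000 FPKM were lower; the reason for the deposited scaling was not tested. With adjusted p alone, 3939 genes were called, 1805 higher and 2134 lower (45.8% higher), and against a fold change of 1.2, 2235 were called, 910 higher and 1325 lower (40.7% higher). Each library left out in turn gave 632 to 725 genes called, 202 to 213 higher and 430 to 514 lower, 29.1% to 32.0% of them higher. The first principal component of the 6 libraries held 89.5% of the variance, 89.4% to 92.6% with a library left out and 80.5% with a pseudocount of 0.1. The largest running median was 0.82 with windows of 50 genes and 1.17 with 20. The 4 named genes, which were chosen for the size of their change, kept their direction and call under every alternative. The log2 fold changes of CHR1-1586 ran from 5.50 to 7.38. Deviations of same-numbered replicates had correlations of 0.124, -0.0087 and -0.021, and those of other pairs -0.105 to 0.118. With 3 libraries in a group, these values cannot decide whether same-numbered libraries share more than a number. With a replicate block, 669 genes were called, 208 higher and 461 lower. The alternatives for abundant genes and for genes near ends were chosen after seeing the data. The planned gene lists were not run, because the tags are not paired with names, nor were the alternatives for a table of counts. Depth limits the lowest genes, those of at most 3 reads in each library of a group.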
